A study of Mus musculus with 12 samples.

Results

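Cultured mouse salivary glands with an epithelial deletion of the FGFR2b receptor isoform were compared with the glands of their littermates over the autosomal protein-coding genes. The genes were all autosomal protein-coding features of the deposited table, 20675 of 52636 features on 19 chromosomes, with the sex chromosomes and processed pseudogenes left out. Of these, 13256 passed a filter on low counts and were tested. The homozygous group (HOM, 2 libraries) consisted of K14Cre-Fgfr2b -/- salivary glands. Its controls were 2 libraries of heterozygous (HET) and 2 of wild-type (WT) littermates of the same cross, 4 control libraries in all. In the tests, joined littermates means the average of the WT and HET group means. The difference between WT and HET therefore does not enter the SE or the p-value. Cre under the keratin 14 promoter acts in epithelium, so the mesenchyme, nerves and vessels of a HOM gland carry their own intact Fgfr2. The glands of the cross were dissected from embryos of stage E13.5 and cultured for 2 days on a membrane without drug, and total RNA of the whole gland was sequenced after removal of ribosomal RNA. A further 3 libraries of wild-type glands cultured with the solvent DMSO come from another experiment of the series, and are used here as a second reference. These glands, and those given the inhibitor named next, were also of stage E13.5 and cultured for 2 days. The model also held 3 libraries of wild-type glands cultured with FGFRi (SU5402, a small-molecule inhibitor of FGF receptor kinases) at 2.5 µM; they enter the estimate of the spread and none of the comparisons. The labels do not say whether libraries of a group came from separate embryos or litters, so a p-value reflects the variation among these libraries, part of which may be technical. Nor do they say whether WT littermates carried Cre.

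FGFR2b is the epithelial splice form of FGF receptor 2, and its main ligands in developing glands, FGF10 and FGF7, are made by the surrounding mesenchyme. Signalling through it drives growth and branching of the end buds, acts largely through the ERK kinase cascade, and switches on ETV transcription factors together with the Sprouty and DUSP feedback inhibitors. Heparan sulfate chains on the cell surface and in the matrix hold the ligand at the receptor.

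Total counts were 12007457 and 22322182 in the HOM libraries, and between 11001035 and 13900648 in the 4 controls. Mitochondrial genes took 3.93% to 8.63% of the counts of these 6 libraries. Features like ribosomal RNA still took 15.8% to 20.6%, with 15.8% and 20.3% in HOM 1 and HOM 2. By Xist and Y-linked counts the 4 controls came from males and the HOM pair from females, so sex and genotype cannot be told apart within the cross. DMSO 1 and DMSO 3 read as female, DMSO 2 as male and the 3 FGFRi libraries as female. The markers of the gland were present in every library: Krt14, the basal keratin whose promoter drives the Cre, was at 54.5 and 69.8 CPM (counts scaled by edgeR's TMM factors to a common library size) in HOM and 63.7 to 137 in the controls. HOM and control libraries overlapped for it. Fgfr2 itself was at 89.2 and 94.4 CPM in HOM and 86.2 to 101 in the controls, a log2 fold change of -0.07 ± 0.08 (SE, adjusted p = 0.685). The counts cover the whole gene, so they hold the mesenchymal splice form too, do not separate the deleted part, and do not check the genotype labels.

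The homozygous glands held less RNA of 13 of 28 duct, 11 of 30 tight junction and 8 of 14 desmosome genes than their joined littermates. Against HET alone, 7, 3 and 5 genes of these lists were lower. More RNA was held of 16 of 28 mesenchyme and 12 of 24 matrix-remodelling genes, of which 1 each passed against HET alone. Also higher were 5 of 11 neural-crest-glia and 14 of 26 skeletal muscle genes, with 2 and 0 calls against HET alone. With a term for library sex, which rests on the DMSO libraries alone, 1 duct gene was lower and 1 mesenchyme gene higher. None of the other lists named here then held a call. Median log2 changes with that term were -0.47 for duct, -0.22 for tight junction and -0.77 for desmosome genes. Without it they were -0.65, -0.31 and -0.73. For mesenchyme, matrix-remodelling, neural-crest-glia and muscle genes they were 0.36, 0.26, 0.14 and 2.94 with the term. Without it these were 0.48, 0.38, 0.50 and 2.26. Of the 13256 genes tested, 512 were higher in HOM (3.86%) and 359 lower (2.71%) at an adjusted p under 0.05 by edgeR's quasi-likelihood test. Changes of at least 2-fold were seen in 128 of the higher and 45 of the lower genes. Both HOM libraries stood above all 4 controls in 1925 genes whatever their p (14.5%), and below all 4 in 1769 (13.3%). Among the called genes, 474 were above (3.58%) and 348 below (2.63%) every control library. Of those, 444 and 314 were also separated from all 3 DMSO libraries. The 38 higher and 11 lower called genes that overlapped a control include the stratified keratin Krt4 and the basal keratin Krt15. All directions are relative to edgeR's TMM scaling, and other scalings, given at the end, moved the calls. In the whole gland, fewer cells of a type and less RNA per cell cannot be told apart.

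**Figure D1:**
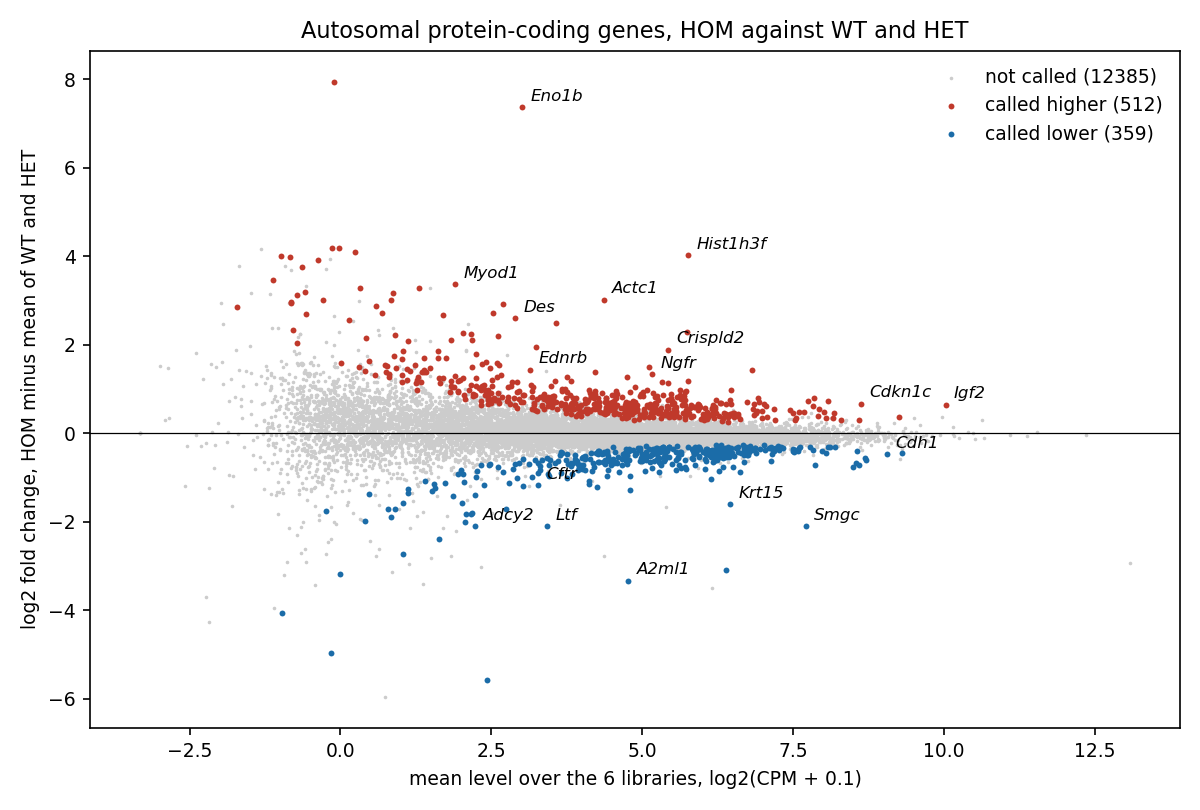
Each point is 1 of the 13256 tested genes, with its mean level over the 6 WT, HET and HOM libraries on the x axis (log2 of CPM plus 0.1) and its log2 fold change in HOM on the y axis. The 512 genes called higher (red) and 359 called lower (blue) spread over all levels, and Eno1b at 7.37 and A2ml1 at -3.33 lie far from zero.

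Most receptors, ligands and co-factors of the FGF system did not pass the test against the littermates. Over all genes tested, 3.86% were called higher and 2.71% lower. Of 16 tested ligands, receptors and co-factors, 2 were higher, 1 was lower and 13 did not pass the test, with a median log2 change of 0.19 against -0.01 over all genes tested. Their log2 changes ranged from -0.62 to 1.45, the highest in a gene that did not pass. An unadjusted p under 0.05 was reached by 5 of the 16, so the genes that did not pass were not shown to be unchanged. Fgf10, the mesenchymal ligand of FGFR2b, was read at 23.6 and 23.6 CPM in WT, 41.7 and 29.6 CPM in HET and 48.8 and 39.6 in HOM. HET and HOM libraries overlapped, and WT was lowest. Its log2 change of 0.60 ± 0.14 (adjusted p = 0.0224) lost the call when HET 2, HOM 1, HOM 2, WT 1 or WT 2 was left out (adjusted p up to 0.209). Flrt3, a membrane protein that binds FGF receptors, was at 12.5 to 18.4 CPM in the controls and 24.2 and 24.7 in HOM (0.65 ± 0.13, adjusted p = 0.00869). Fgfbp1, a secreted carrier that releases FGFs from matrix, was lower at 18.2 and 20.4 CPM against 26.8 to 31.9 (-0.62 ± 0.13, adjusted p = 0.0112). Both calls were lost without HOM 1 and without HOM 2 (adjusted p up to 0.140 and 0.103). Fgfr1, at 210.0 and 224 CPM in HOM and 185 to 214 in the controls, did not pass. Nor did Fgf7, at 9.84 and 7.41 CPM in HOM and 4.17 to 9.61 in the controls (0.41 ± 0.24).

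The ERK-responsive genes did not move as 1 group. Of 24 tested targets and feedback inhibitors, 3 were higher and 1 lower, with a median of 0.03; without HOM 2 the counts were 1 and 0. The 3 ETV factors of the PEA3 subfamily were split. Etv1 was read at 54.4 and 63.7 CPM in WT, 57.9 and 68.8 CPM in HET and 38.2 and 32.4 in HOM. Both HOM libraries lay below every control and every DMSO library, and the log2 change was -0.80 ± 0.15 (adjusted p = 0.00657). Etv5 stood at 155 and 159 CPM in WT, 159.5 and 137.7 CPM in HET, and at 214 and 226 in HOM, above every control and every DMSO library (0.52 ± 0.10, adjusted p = 0.00657). Etv4 was at 24.8 to 27.8 CPM in the controls and 35.4 and 40.6 in HOM (0.56 ± 0.10, adjusted p = 0.00493). The DMSO libraries read 36.5 to 42.2 CPM for Etv4, so HOM was above its littermates and not above the DMSO glands. Each ETV call was lost without HOM 2, with adjusted p of 0.171 for Etv1, 0.147 for Etv4 and 0.132 for Etv5.

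Among the feedback inhibitors, Spry4, a Sprouty protein that blocks signalling upstream of ERK, was higher. It was read at 15.1 and 15.6 CPM in WT, 24.8 and 22.4 CPM in HET and 29.7 and 26.7 in HOM (0.56 ± 0.10, adjusted p = 0.00342). HET lay between WT and HOM, and the change was 0.88 against WT (adjusted p = 0.000533) and 0.25 against HET (adjusted p = 0.375). Spry1 (55.7 and 55.9 CPM in HOM, 51.4 to 60.3 in controls) and the ERK phosphatase Dusp6 (123 and 125 CPM in HOM, 113 to 139 in controls) lay inside the control range. Kit, the receptor that marks end bud progenitors, was also inside it or just above, at 77.2 and 79.0 CPM in HOM against 74.7 to 78.4. Their log2 changes were 0.03 ± 0.08 for Spry1, -0.02 ± 0.11 for Dusp6 and 0.02 ± 0.10 for Kit. Of 21 tested genes of heparan sulfate synthesis and cores, 3 were higher and 0 lower (1 and 0 without HOM 2). Hs3st1, a sulfotransferase that finishes heparan chains, went from 15.7 to 20.6 CPM in the controls to 29.4 and 31.3 in HOM (0.71 ± 0.10, adjusted p = 0.00119), and its call held without any single library. Gpc1, a membrane-anchored heparan sulfate proteoglycan, rose from 61.8 to 64.6 CPM in the controls to 89.0 and 101 in HOM (0.59 ± 0.10, adjusted p = 0.00327; 0.123 without HOM 2).

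Duct genes showed the most lower calls by number of the lists described here. By share, desmosome genes (8 of 14, median -0.73) and pan-epithelial genes (10 of 19, median -0.36) had more. Of 28 tested, 13 were lower, 0 higher and 15 did not pass, at a median of -0.65. In 23 of the 28, both HOM libraries were below all 4 controls. The summed level of the list was 3132 and 3167 CPM in WT, 2989 and 2776 CPM in HET and 1971 and 1985 in HOM. WT and HET lay near each other, and both HOM libraries stood apart from them. The medians were -0.69 against WT, with 15 called lower, and -0.65 against HET, with 7. Without HOM 2 there were 5 lower calls, and without HOM 1 there were 8.

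The 2 libraries of each genotype lay near each other for Cftr and Ehf, and further apart for Ltf. Cftr, the chloride channel of duct cells, was at 11.4 and 10.3 CPM in WT, 11.7 and 13.7 CPM in HET and 5.12 and 5.30 in HOM (-1.17 ± 0.16, adjusted p = 0.00062). Every control was well above both HOM libraries, and the DMSO libraries, at 13.4 to 17.4 CPM, were higher still. Ltf encodes lactoferrin, an iron-binding defence protein of secretions. It was at 19.3 and 17.1 CPM in WT, 7.65 and 13.4 CPM in HET and 2.40 and 3.81 in HOM (-2.09 ± 0.25, adjusted p = 0.000303). HET lay between WT and HOM. Ehf, an ETS factor of simple epithelia, was at 503.6 and 519.6 CPM in WT, 439 and 437 CPM in HET and 327 and 293 in HOM (-0.61 ± 0.08, adjusted p = 0.000646). The calls of Cftr, Ltf and Ehf held without any single library. Gjb2, a gap junction connexin, was at 7.12 and 6.21 CPM in HOM and 12.2 to 15.1 in the controls (-0.97 ± 0.20, adjusted p = 0.00984; 0.200 without HOM 2).

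Genes shared by most epithelia were also lower. Of 19 pan-epithelial genes, 10 were lower, 0 higher and 9 did not pass, at a median of -0.36; 17 of the 19 had both HOM libraries below all controls. Their sum was 2439 and 2538 CPM in WT, 2250 and 2138 CPM in HET and 1758 and 1849 in HOM. HET lay between WT and HOM, and against HET alone 1 of the 19 was called, with a median of -0.30. Without HOM 1 and without HOM 2 none of the 19 was called by edgeR's test, at medians of -0.31 and -0.43, and 13 and 16 had an unadjusted p under 0.05. Without HET 1, WT 1 or WT 2 the counts were 6, 4 and 5. Cdh1, the cadherin of epithelial adherens junctions, was at 603 and 657 CPM in WT, 536 and 542 CPM in HET and 413.9 and 429.7 in HOM. Its log2 change was -0.47 ± 0.10 (adjusted p = 0.011; up to 0.118 without HOM 1, HOM 2 or WT 2). Esrp1, the splicing regulator that favours epithelial isoforms such as FGFR2b, was at 216 to 264 CPM in the controls and 186 and 192 in HOM (-0.32 ± 0.07, adjusted p = 0.0114; up to 0.111 without HOM 1, HOM 2 or WT 2).

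**Figure D2:**
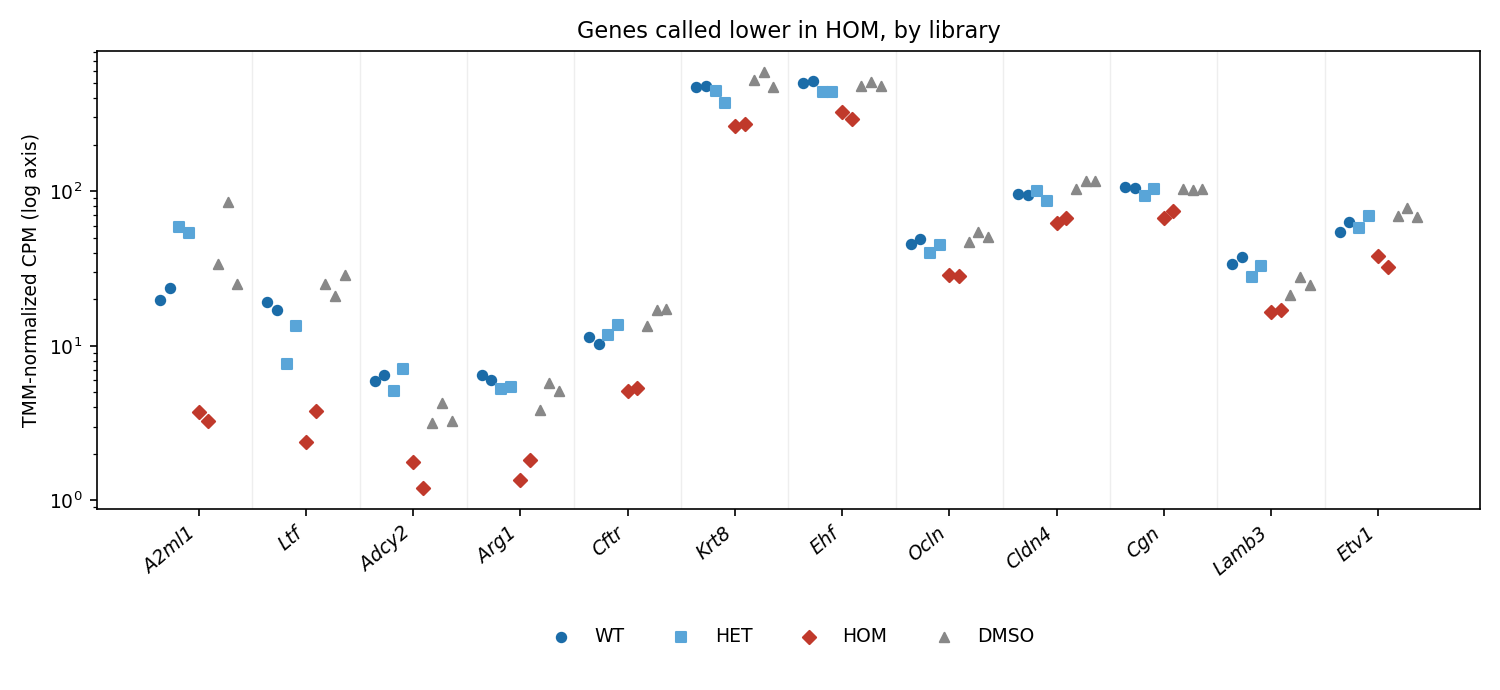
TMM-normalized CPM (log axis) of 12 genes called lower, 1 point per library, for WT, HET, HOM and the separate DMSO glands. Both HOM points lie below all 4 littermate points for each gene. For Cftr the DMSO libraries, at 13.4 to 17.4 CPM, lie above HOM at 5.12 and 5.30.

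Tight junction genes were lower in part. Of 30 tested, 11 were lower, 0 higher and 19 did not pass, at a median of -0.31, and 3 were lower against HET alone, 3 without HOM 2 and 5 without HOM 1. Scaled to library totals, edgeR's test called 0 of them, at a median of -0.16 and with 3 at an unadjusted p under 0.05, and scaled to pan-epithelial genes the median turned to 0.06. Ocln, a strand protein, was at 45.5 and 48.7 CPM in WT, 40 and 44.8 CPM in HET and 28.6 and 28.2 in HOM (-0.66 ± 0.09, adjusted p = 0.000896). Cgn, a plaque protein that tethers strands to actomyosin, was at 93.3 to 107 CPM in the controls and 67.6 and 74.3 in HOM (-0.52 ± 0.09, adjusted p = 0.00279). Cldn4, a claudin that seals against cations, was at 86.7 to 100.5 CPM in the controls and 62.1 and 67.6 in HOM (-0.54 ± 0.09, adjusted p = 0.00218). For these 3 genes HOM lay below every littermate and every DMSO library, and the calls held without any single library.

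Desmosomes, the spot junctions that anchor keratin, showed 8 lower genes of 14 tested, 0 higher and a median of -0.73. Against HET alone 5 were lower, and without HOM 2 and HOM 1 in turn the counts were 1 and 4. Pkp2, a plaque armadillo protein, was at 26.5 to 29.0 CPM in the controls and 17.8 and 16.4 in HOM (-0.68 ± 0.10, adjusted p = 0.00124; 0.0521 without HOM 2). Dsp, the plakin that binds keratin, was at 479.9 and 439.8 CPM in WT, 405 and 533 CPM in HET and 321 and 314 in HOM (-0.55 ± 0.12, adjusted p = 0.012; up to 0.160 without HOM 1 or HOM 2). Adherens junction genes were mixed, with 4 lower and 3 higher of 22. Leaving out single libraries gave 0 to 3 lower and 0 to 1 higher. Besides Cdh1, the lower ones included Jup, shared with desmosomes, and Nectin4, and the higher ones Cdh11, a mesenchymal cadherin at 47.7 to 77.9 CPM in the controls and 94.9 and 85.6 in HOM (0.58 ± 0.13, adjusted p = 0.0148; up to 0.125 without HET 2, HOM 1, HOM 2 or WT 2).

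End bud and early acinar genes were 6 lower and 1 higher of 22, with a median of -0.43, and without HOM 2 edgeR's test called 0, with 10 at an unadjusted p under 0.05. The lower calls were 1 without HOM 1, 3 without HET 1 and 2 without WT 2. Smgc, a mucin-like product of early submandibular cells, was at 246 and 204 CPM in WT, 414 and 264 CPM in HET and 70.1 and 60.2 in HOM (-2.09 ± 0.47, adjusted p = 0.0159; up to 0.231 without HOM 1 or HOM 2). The DMSO glands, at 268 to 675 CPM, were also above both HOM libraries. Elf5, an ETS factor of secretory progenitors, was at 107 to 133 CPM in the controls and 91.2 and 85.4 in HOM (-0.42 ± 0.10, adjusted p = 0.0206; up to 0.269 without HET 1, HOM 1, HOM 2 or WT 2). Sox10, which marks end bud progenitors and also glia, was at 181 and 205.5 CPM in HOM and 157 to 189 in the controls and did not pass (0.14 ± 0.10).

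Basal genes were 4 lower and 1 higher of 20. The lower calls were 1 without HOM 1, HOM 2, HET 2 or WT 1, and 2 without HET 1 or WT 2. Lamb3, a chain of laminin-332 under hemidesmosomes, fell from 28.0 to 37.5 CPM in the controls to 16.6 and 17.1 in HOM (-0.96 ± 0.14, adjusted p = 0.001), with every single-library omission keeping the call. Krt15, a basal keratin, was at 158 and 37.2 CPM in WT, 122 and 137 CPM in HET and 30.1 and 43.6 in HOM. WT 2 lay inside the HOM range, and the call (-1.60 ± 0.43, adjusted p = 0.0404) was lost without HET 1, HET 2, HOM 1, HOM 2 or WT 1 (adjusted p up to 0.239). The stratified differentiation genes spread in the same way between the littermates: their sum was 979.6 and 362.8 CPM in WT, 486 and 707 CPM in HET and 251 and 309 in HOM. Of 23 tested, 5 were lower and 0 higher, with a median of -1.08. Without HOM 1 and without HOM 2 there was 1 lower call each. The median moved to -2.19 without HOM 2 and to -0.45 without WT 1.

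Promoter sequences of epithelial genes were searched for an E-box, a motif bound by the repressors Zeb1 and Zeb2. Both were higher in HOM than in the joined littermates, and Zeb1 did not pass against HET alone (below). Both belong to the mesenchyme list described below, and RNA of the whole gland does not show which cells held them. The motif searched was CACCTG, or CAGGTG on the other strand, in the 250 bases before each start site in RefSeq sequences of GRCm38.p6. It was present in 17.2% of all 32851 windows, 16.4% of the windows of tested genes, 23.4% of 368 windows of genes called lower and 14% of 479 windows of genes called higher. Counted by gene, at least 1 window with the motif was found for 19.3% of the tested genes in the table, 29.5% of those called lower and 17.6% of those called higher. Of the 38 genes called lower among duct, pan-epithelial, tight junction and desmosome genes, 24 matched the table. The other 14, Cdh1 among them, had no entry. Matched genes shared by lists are counted in each. The motif was held by 6 of 11 duct, 3 of 5 pan-epithelial, 4 of 8 tight junction and 0 of 2 desmosome genes. Together, 12 of the 24 (50%) held the motif. The 4 whose window contains no annotated exon are given 5′ to 3′ on the gene's strand, with the motif in capitals. They are Cldn4 (chr5:134946935-134947184, minus strand), Spint2 (chr7:29281978-29282227, minus strand), Gjb2 (chr14:57104703-57104952, minus strand) and Ildr1 (chr16:36693728-36693977, plus strand).
Cldn4: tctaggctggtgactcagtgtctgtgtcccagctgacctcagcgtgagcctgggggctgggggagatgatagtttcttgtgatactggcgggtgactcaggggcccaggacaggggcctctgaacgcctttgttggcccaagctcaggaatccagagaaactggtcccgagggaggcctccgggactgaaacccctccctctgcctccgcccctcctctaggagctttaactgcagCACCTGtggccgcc
Spint2: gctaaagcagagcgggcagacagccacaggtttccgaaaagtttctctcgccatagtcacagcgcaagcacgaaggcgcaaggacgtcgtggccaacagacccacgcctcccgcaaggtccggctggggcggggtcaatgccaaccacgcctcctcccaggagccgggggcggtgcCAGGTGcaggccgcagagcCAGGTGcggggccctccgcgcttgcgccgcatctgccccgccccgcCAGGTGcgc
Gjb2: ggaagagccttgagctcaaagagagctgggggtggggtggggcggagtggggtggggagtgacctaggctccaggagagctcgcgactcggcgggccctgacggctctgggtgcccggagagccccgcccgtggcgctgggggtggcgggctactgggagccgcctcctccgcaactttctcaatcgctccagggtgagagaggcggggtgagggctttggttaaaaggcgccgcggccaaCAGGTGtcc
Ildr1: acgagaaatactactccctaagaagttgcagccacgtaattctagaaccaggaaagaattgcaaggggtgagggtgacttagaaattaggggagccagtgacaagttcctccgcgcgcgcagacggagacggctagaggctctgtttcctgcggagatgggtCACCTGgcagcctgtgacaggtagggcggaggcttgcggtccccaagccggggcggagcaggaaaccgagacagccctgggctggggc
The window of Spint2, an inhibitor of epithelial serine proteases, holds 3 copies, and its RNA was at 256.5 to 301.5 CPM in the controls and 192 and 222 in HOM (-0.41 ± 0.11, adjusted p = 0.041). Ildr1, a protein of tricellular junctions, was at 20.1 to 23.6 CPM in the controls and 15.5 and 16.5 in HOM (-0.46 ± 0.11, adjusted p = 0.0192). These 2 genes were chosen for their sequences after their values were seen. A match is a description of these letters, and binding was not measured. Genes of these lists that were not called lower were not counted. The part of Zeb1 and Zeb2 in the lower calls was not tested.

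Mesenchyme genes were higher, and most of the calls rested on WT. Of 28 tested, 16 were higher, 0 lower and 12 did not pass, at a median of 0.48. Their sum was 3431 and 3630 CPM in WT, 5334 and 4870 CPM in HET and 5451 and 5743 in HOM. HET and HOM were close, and WT stood apart. Against the genotypes taken singly, 20 genes were higher against WT (median 0.73) and 1 against HET (median 0.23). Without HOM 2 there were 4 higher calls, and without HOM 1 there were 7.

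Zeb2 was at 26.7 and 24.9 CPM in WT, 38.5 and 38.0 CPM in HET and 59.8 and 55.1 in HOM, in 3 separate steps (0.87 ± 0.11, adjusted p = 0.000532). Against HET it was 0.59 higher (adjusted p = 0.0402). Zeb1 was at 13.7 and 11.3 CPM in WT, 21.3 and 22.1 CPM in HET and 29.6 and 27.9 in HOM (0.79 ± 0.12, adjusted p = 0.00111), and its change against HET was 0.40 (adjusted p = 0.190). Pdgfrb, the PDGF receptor of perivascular and mesenchymal cells, was at 28.3 and 27.2 CPM in WT, 55.1 and 46.7 CPM in HET and 65.7 and 72.0 in HOM (0.87 ± 0.10, adjusted p = 0.000232). HET was nearer to HOM than to WT for this gene, with 1.31 against WT and 0.44 against HET (adjusted p = 0.0836). Barx1, a homeobox factor of jaw and gland mesenchyme, was at 15.7 and 13.4 CPM in WT, 23.2 and 21.4 CPM in HET and 31.2 and 36.4 in HOM (0.91 ± 0.13, adjusted p = 0.000748).

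Matrix proteases and their inhibitors were 12 higher and 0 lower of 24, with a median of 0.38. Against HET alone 1 was higher, at a median of 0.25, and without HOM 2 there were 2. Without HET 2, WT 1 or WT 2 the counts were 7, 6 and 7. Mmp16, a membrane-type metalloprotease, was at 23.4 and 21.7 CPM in WT, 30.1 and 22.6 CPM in HET and 46.5 and 41.7 in HOM (0.85 ± 0.12, adjusted p = 0.000861). It was also higher against HET (0.74, adjusted p = 0.0156). Adamts1, a secreted protease of proteoglycans, was at 37.0 to 58.7 CPM in the controls and 70.7 and 74.4 in HOM (0.64 ± 0.09, adjusted p = 0.00062), with HET between WT and HOM.

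Basement membrane and integrin genes were 7 higher and 0 lower of 27, with a median of 0.22 and 1 higher against HET alone (2 without HOM 2). Itga9, an integrin subunit that binds tenascin, was at 63.5 and 64.0 CPM in WT, 56.2 and 60.0 CPM in HET and 90.9 and 97.6 in HOM. Both control genotypes were alike for it, and its change of 0.63 ± 0.09 (adjusted p = 0.000748) was 0.70 against HET (adjusted p = 0.00314). Nid1, the nidogen that links laminin to collagen IV, was instead at 69.9 and 75.0 CPM in WT, 133 and 114 CPM in HET and 147.9 and 150.4 in HOM. Its change of 0.66 ± 0.09 (adjusted p = 0.000861) was 1.04 against WT and 0.27 against HET (adjusted p = 0.299).

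Growth factor genes of the PDGF, HGF, IGF and GDNF systems were 8 higher and 2 lower of 25, with a median of 0.37. They were 10 higher and 0 lower against WT, and 1 higher and 1 lower against HET. Leaving out single libraries gave 3 to 7 higher and 0 to 1 lower, with 3 and 0 without HOM 2. Igfbp4, a secreted binder of insulin-like growth factors, was at 155 and 148 CPM in WT, 218 and 222 CPM in HET and 283.9 and 350.2 in HOM (0.80 ± 0.10, adjusted p = 0.000442), and passed against HET too (0.53, adjusted p = 0.0365). Of 13 retinoic acid genes 3 were higher and 1 lower. Aldh1a2, which makes retinoic acid, was at 9.15 and 9.19 CPM in WT, 21.8 and 18.5 CPM in HET and 24.7 and 27.7 in HOM (0.95 ± 0.11, adjusted p = 0.000294). Stra6, the cell-surface retinol importer, was at 2.86 and 2.59 CPM in WT, 5.98 and 6.03 CPM in HET and 8.80 and 11.2 in HOM (1.31 ± 0.17, adjusted p = 0.000442). For both genes HET lay between, and neither passed against HET (adjusted p = 0.192 and 0.0679). Dhrs3, which returns retinal to retinol, was the lower one, at 25.2 to 34.7 CPM in the controls and 17.8 and 20.1 in HOM (-0.57 ± 0.15, adjusted p = 0.041; up to 0.215 without HET 1, HOM 1, HOM 2, WT 1 or WT 2).

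**Figure D3:**
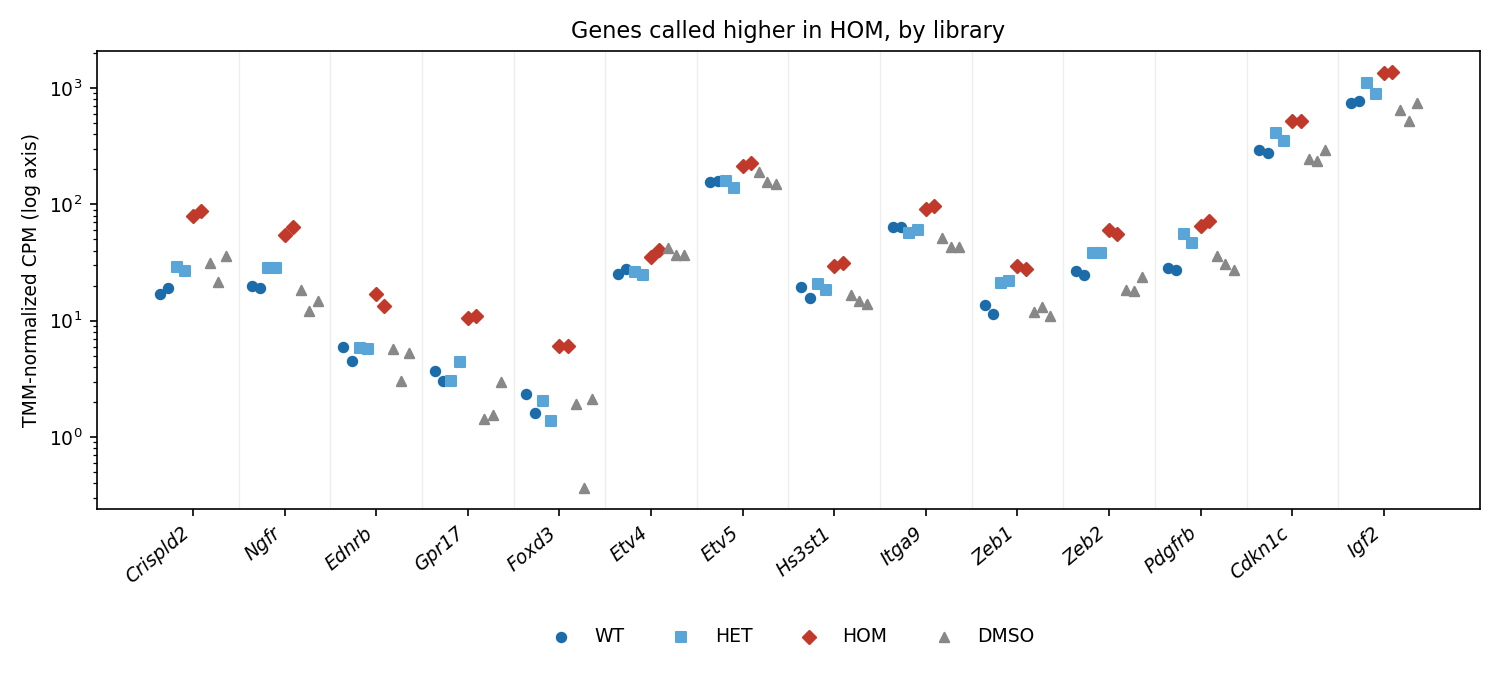
TMM-normalized CPM (log axis) of 14 genes called higher, 1 point per library, for WT, HET, HOM and the separate DMSO glands. Both HOM points lie above all 4 littermate points for each gene. HET lies between WT and HOM for Zeb1, Zeb2 and Pdgfrb, and beside WT for Ednrb and Itga9.

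Neural crest and glial genes were higher, with medians of like size against WT and against HET. Of 11 tested, 5 were higher, 0 lower and 6 did not pass, at a median of 0.50. The medians were 0.73 against WT, with 5 called, and 0.61 against HET, with 2. Leaving out HOM 1, HOM 2 or WT 2 gave 3, 2 and 3 calls. With a term for library sex, which rests on the DMSO libraries alone, the median was 0.14. Ngfr, the low-affinity neurotrophin receptor of Schwann cell precursors that basal epithelium also carries, was at 19.8 and 19.0 CPM in WT, 28.3 and 28.6 CPM in HET and 55.0 and 64.0 in HOM. Both HOM libraries lay far above all others, the DMSO libraries at 12.2 to 18.5 CPM included. The change was 1.34 ± 0.14 (adjusted p = 8.89e-05), and 1.07 against HET (adjusted p = 0.00431).

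Ednrb, the endothelin receptor of neural crest derivatives, was at 6.01 and 4.54 CPM in WT, 5.83 and 5.71 CPM in HET and 17.0 and 13.49 in HOM (1.44 ± 0.24, adjusted p = 0.00244). The 4 controls were alike, and the change against HET was 1.39 (adjusted p = 0.0237). Foxd3, a transcription factor of crest progenitors, was at 1.37 to 2.34 CPM in the controls and 6.08 and 6.12 in HOM (1.71 ± 0.38, adjusted p = 0.0148; up to 0.178 without HOM 1, HOM 2 or WT 2). With the sex term its direction turned, to -0.73 (adjusted p = 0.8). Gpr17, a receptor of immature oligodendroglia that is in no list here, was at 3.03 to 4.42 CPM in the controls and 10.5 and 11 in HOM (1.59 ± 0.23, adjusted p = 0.000957). Its call held without any single library.

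The summed level of the glial list was 474.5 to 503.8 CPM in the controls and 538 and 581 in HOM. Parasympathetic neuron genes were 1 higher and 0 lower of 16, with both HOM libraries above all controls in 12 and a median of 0.51. With the sex term the direction turned: the median was -1.09, with 3 lower and 0 higher. The single call was lost without HOM 1, HOM 2, HET 2 or WT 2, and without WT 1 there were 2. Their sum was 222 to 312 CPM in the controls, 344 and 386 in HOM, and 324, 93.4 and 261 in DMSO 1 to 3. Whether gland innervation differed between dissections was not tested.

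Skeletal muscle genes, which belong to tissue next to the gland, separated WT from all other littermates. Of 26 tested, 14 were higher, 0 lower and 12 did not pass, at a median of 2.26. Their sum was 28.6 and 20.4 CPM in WT, 153 and 276 CPM in HET, 284 and 312 in HOM and 39 to 121 in DMSO. HET 2 was close to HOM 1, and WT lay lowest. Against WT 20 genes were higher; against HET the median was 0.52 and edgeR's test called 0, with 0 at an unadjusted p under 0.05. Without HOM 2 it also called 0, with 20 at an unadjusted p under 0.05. DESeq2 called 12 higher and limma-voom 1. Without HOM 1, HET 1, WT 1 or WT 2 the counts were 5, 9, 7 and 5. Of the 26 genes, 12 were at 0 counts in at least 1 of the 6 libraries, among them the myogenic factors Myod1, Myog and Pax7. The median against WT was 3.96, or 3.76 with the 3 genes at 0 in both WT libraries set to a floor of 3 counts over the pair. Desmin (Des), the muscle intermediate filament, was at 1.03 and 0.324 CPM in WT, 5.68 and 8.92 CPM in HET and 13 and 15.2 in HOM (2.61 ± 0.50, adjusted p = 0.00625; 0.107 without HOM 2). The muscle and mesenchyme sums were both higher in HET and HOM than in WT. In DMSO 1 to 3 the muscle sums were 39, 95.3 and 120.8 CPM, and the mesenchyme sums 3263, 3246 and 3324 CPM. The part of muscle carry-over in the mesenchyme and matrix results above was not tested.

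**Figure D4:**
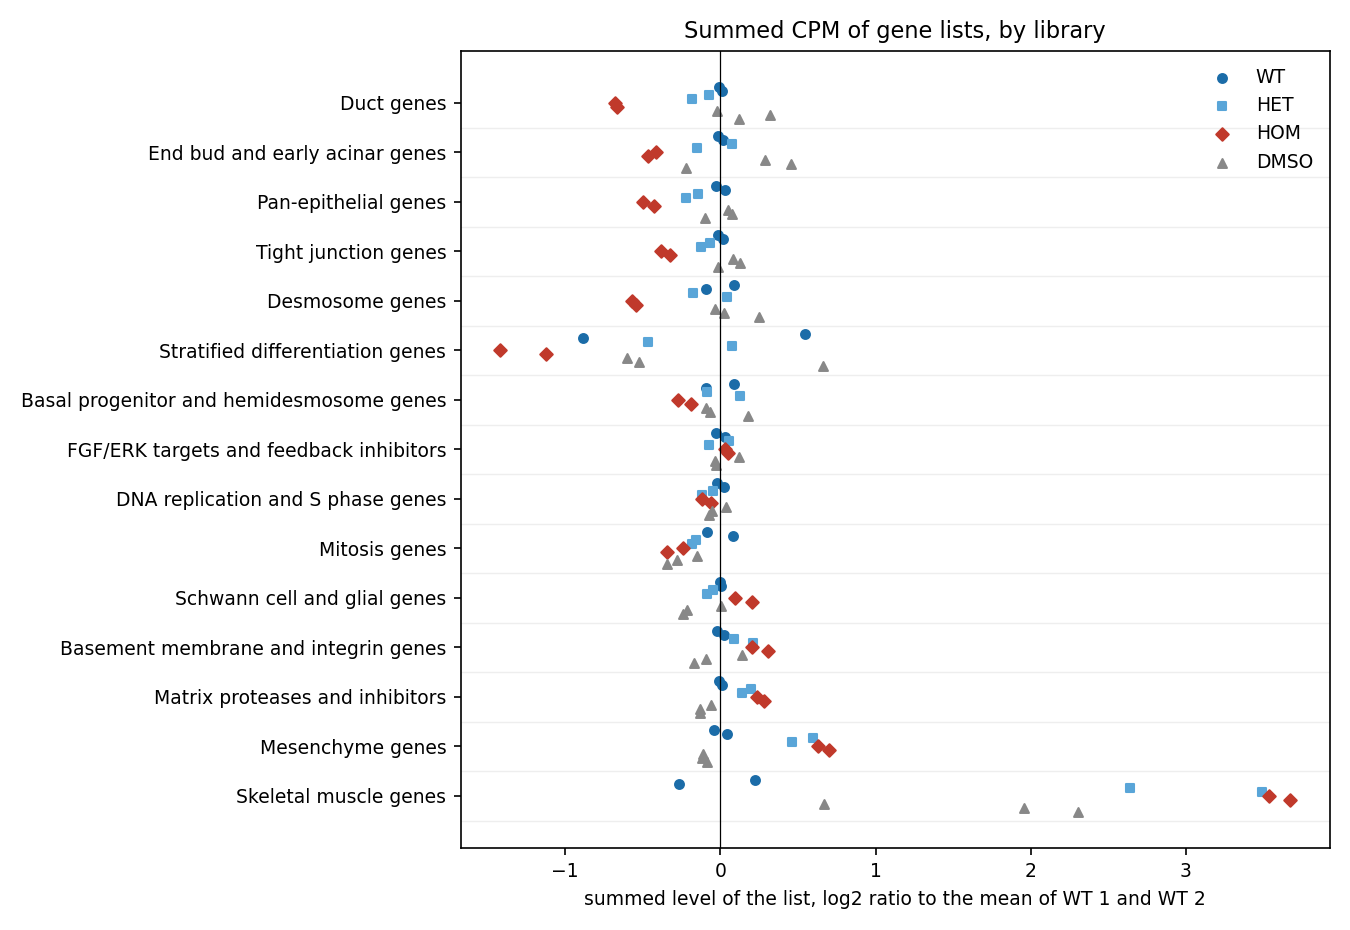
Summed CPM of 15 gene lists in each library as a log2 ratio to the mean of WT 1 and WT 2; points are single libraries. Duct sums of both HOM libraries (1971 and 1985 CPM) lie left of every other library, whereas mesenchyme sums of HET lie close to those of HOM. For skeletal muscle genes HET 2 (276 CPM) lies beside HOM 1 (284 CPM), and HET 1 between WT and HOM.

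Most cell cycle, stress and metabolic genes did not pass the test. The counts below stand beside 3.86% called higher and 2.71% called lower over all genes tested. Both HOM libraries were above all 4 controls in 14.5% of all genes tested, and below them in 13.3%. None of 30 DNA replication genes passed edgeR's test in either direction, with a median of -0.05 and 3 genes above and 3 below all controls. An unadjusted p under 0.05 was reached by 3 of them, DESeq2 called 1 lower, and limma-voom 1 higher and 1 lower. Of 28 mitosis genes 1 was lower: Prc1, a midzone protein of the spindle, at 55.9 to 67.8 CPM in the controls and 47.3 and 47.3 in HOM (-0.36 ± 0.09, adjusted p = 0.0212; up to 0.202 without HET 2, HOM 1, HOM 2, WT 1 or WT 2). DESeq2 called 6 mitosis genes lower and limma-voom 4. Both HOM libraries were below all 4 controls for 9 of the 28. Against WT alone 7 were lower, and against HET alone 0. Mitosis sums were 2808 to 3368 CPM in the controls and 2699 and 2511 in HOM. By edgeR's test the EDA and NF-kB list had 0 calls of 14, endothelial genes 0 of 13, macrophage genes 0 of 16 and fatty acid synthesis genes 0 of 13. At an unadjusted p under 0.05 these lists had 3, 3, 5 and 2 genes. DESeq2 called none of them, and limma-voom called 1 endothelial and 2 macrophage genes higher. Cholesterol synthesis genes had 2 lower of 21, and stress response genes 2 lower and 1 higher of 28. Ion and water transport genes had more, 5 lower of 24 at a median of -0.40, with 2 lower against HET alone. DESeq2 and limma-voom each called 7 of them lower. Both HOM libraries were below all 4 controls for 14 of the 24, against 13.3% of all genes tested. Immediate early genes were 3 lower of 20, with both HOM libraries below all 4 controls for 7. Smooth muscle and myoepithelial genes were 2 lower of 12, interferon response genes 1 lower of 13 and connexins 1 lower of 9. Hypoxia and glycolysis genes were 1 higher and 1 lower of 20, and erythroid genes 1 higher of 4. Of the signalling lists, Hedgehog genes were 2 higher of 11, Notch 2 higher and 1 lower of 19, Wnt 2 higher and 1 lower of 39, BMP and TGF-beta 3 higher and 1 lower of 29, and EGF and neuregulin 0 higher and 2 lower of 15. Without HOM 2, each of the lists from DNA replication to EGF and neuregulin held 0 or 1 call by edgeR's test, with 1 to 11 genes a list at an unadjusted p under 0.05. With the sex term the erythroid median turned from 1.58 to -0.77.

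Individual signalling genes among these stood clear of the controls. Heyl, a Notch target of perivascular cells, was at 3.30 and 1.51 CPM in WT, 4.54 and 6.03 CPM in HET and 8.80 and 12.4 in HOM (1.55 ± 0.24, adjusted p = 0.00178; 0.107 without HOM 2). Btc, an EGF receptor ligand, was at 4.74 to 6.59 CPM in the controls and 2.40 and 2.03 in HOM (-1.39 ± 0.22, adjusted p = 0.00186; 0.0839 without HOM 2). Wnt5b, a Wnt ligand, was at 26.7 to 32.9 CPM in the controls and 19.3 and 21.1 in HOM (-0.53 ± 0.11, adjusted p = 0.00959; up to 0.0842 without HOM 1 or HOM 2).

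The genes with the widest gaps between HOM and the littermates belong to no single list. Crispld2, a secreted CAP-domain protein of mesenchyme, was at 17.1 and 19.1 CPM in WT, 28.7 and 26.9 CPM in HET and 79.3 and 87.0 in HOM. Both HOM libraries were far above all controls and above the DMSO libraries at 21.4 to 36 CPM. The change was 1.89 ± 0.21 (adjusted p = 0.000149), with 2.21 against WT and 1.58 against HET (adjusted p = 0.005). Adcy2, an adenylyl cyclase, was at 5.07 to 7.08 CPM in the controls and 1.76 and 1.2 in HOM (-2.09 ± 0.27, adjusted p = 0.000523). Arg1, the arginase of the urea cycle, was at 5.22 to 6.52 CPM in the controls and 1.36 and 1.82 in HOM (-1.82 ± 0.25, adjusted p = 0.000646). All 3 calls held without any single library.

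A2ml1, a protease inhibitor of squamous epithelium, was at 19.7 and 23.6 CPM in WT, 59 and 53.8 CPM in HET and 3.76 and 3.27 in HOM (-3.33 ± 0.50, adjusted p = 0.00143; 0.0734 without HOM 2). HET was higher than WT, and HOM lower than both.

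Some of the largest changes did not follow the genotype in order. Eno1b, an intronless enolase copy annotated as protein-coding, was at 0.293 and 0.108 CPM in WT, 0.0757 and 0.0804 CPM in HET, 23.9 and 23.1 in HOM and 54.9 to 66.8 in the wild-type DMSO glands (7.37 ± 0.25, adjusted p = 2.14e-10). Its near-identical parent Eno1 was at 268 to 305 CPM in the controls and 200.1 and 222 in HOM (-0.45 ± 0.08, adjusted p = 0.00346; 0.0566 without HOM 1). The sum of both was 268 to 305 CPM in the controls, 224 and 245 in HOM and 293 to 297 in DMSO, and the division of reads between the copies is uncertain. Zfp990, a zinc finger gene of a family with close copies, had 0 counts in all 4 controls among 50421770 counts, and 32 and 58 in HOM. Set against a floor of 3 counts over the control group, it was at least 44.1-fold higher; the DMSO libraries held 25, 142 and 22 counts. Zfp990 and the parent Eno1 were chosen after their values were seen.

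Hist1h3f, a replication-dependent histone H3 gene of a multigene family whose reads may be shared, was at 55.5 and 59.1 CPM in WT, 0.757 and 0.643 CPM in HET and 107 and 102 in HOM. The HET libraries stood apart, and the change was 7.20 against HET and 0.87 against WT (adjusted p = 0.374). Pianp, a membrane ligand of an inhibitory immune receptor, had the same order, at 5.49 and 7.46 CPM in WT, 0.681 and 1.05 CPM in HET and 10.4 and 11 in HOM (0.75 against WT, adjusted p = 0.211). For both genes the difference from the joined littermates rests on HET.

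The choice of littermate moved the calls more in the upward direction. Against WT alone 662 genes were higher (4.99%) and 447 lower (3.37%). Against HET alone 82 were higher (0.619%) and 123 lower (0.928%). These comparisons share the HOM libraries. Fitting WT and HET as 1 group, so that their difference enters the spread, gave 174 higher and 186 lower genes. By edgeR's test in that fit, the adjusted p was 0.058 for Pdgfrb, 0.0658 for Zeb1, 0.105 for Spry4, 0.135 for Fgf10 and 0.17 for Des. Other genes passed in it, among them Zeb2 (0.0163), Cftr (0.00338) and Ngfr (0.00315). Of the 512 genes called higher against the joined littermates, the HET mean was between the WT and HOM means in 445, with median log2 changes of 0.92 against WT and 0.47 against HET. Of the 359 called lower it was between in 238, with medians of -0.56 and -0.49. HET was above WT in 5827 of the 12385 genes that were not called.

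**Figure D5:**
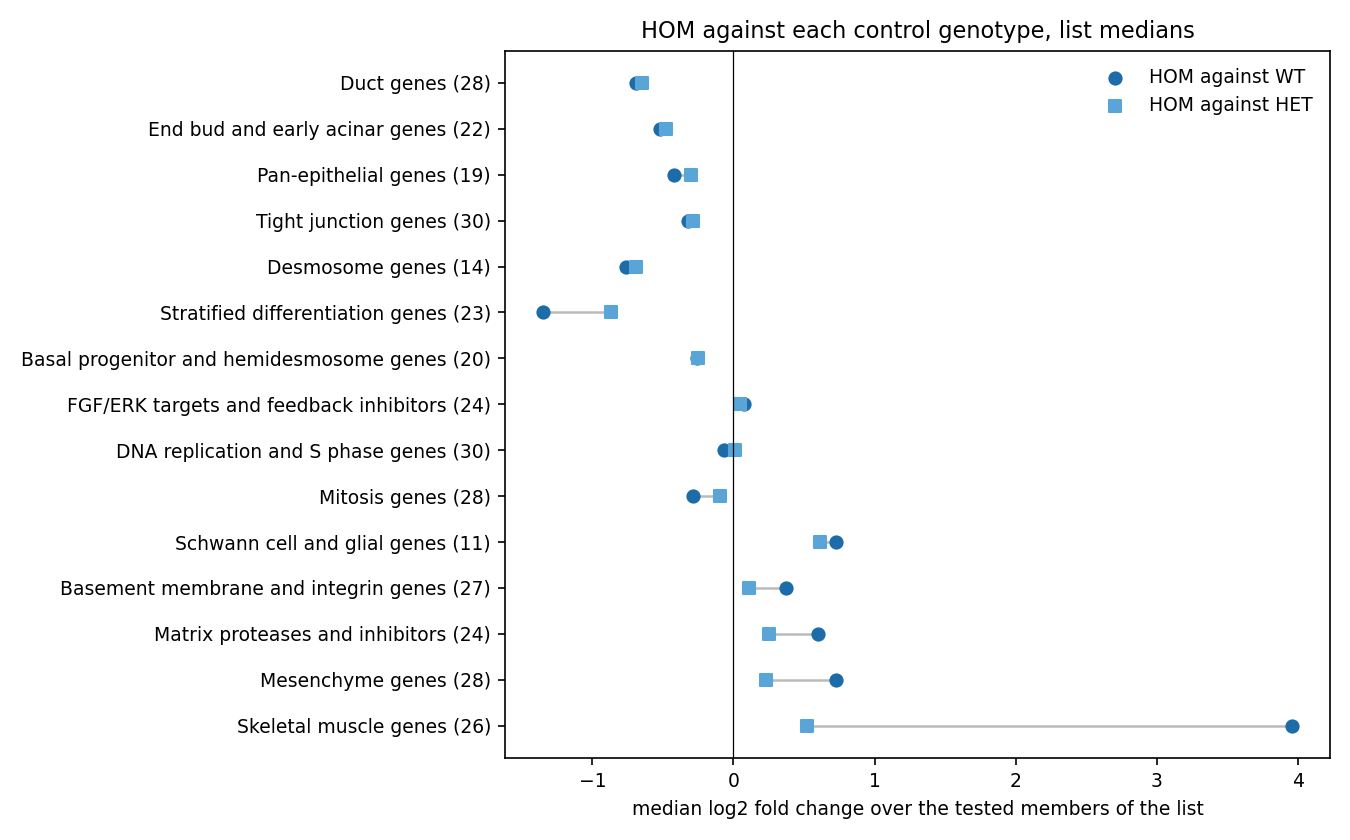
Median log2 fold change over the tested members of 15 lists (number in brackets), HOM against WT (circles) and HOM against HET (squares). The 2 points nearly coincide for duct genes (-0.69 and -0.65) and lie apart for mesenchyme (0.73 and 0.23) and skeletal muscle genes (3.96 and 0.52).

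The counts changed with single libraries, the sex term and the scaling. Without HOM 2, the deeper HOM library, 82 genes were higher and 40 lower, and 120 of the main calls were kept; in all 6 fits that left out 1 library, 103 were kept, 72 higher and 31 lower. The term for library sex left 11 of the calls: Abcc9, Barx1, Cxcl12, Cygb, Eno1b, Gm4737, Igfbp3 and Ldb2 higher, and Hist1h4j, Ltf and Tmc7 lower. Scaled to library totals, the median gene moved to 0.14 and 497 genes were higher and 74 lower, among the latter 6 duct, 4 desmosome and 1 pan-epithelial gene. Scaled to the summed pan-epithelial genes it moved to 0.37, and 9 duct genes were called lower and 1 higher, 2 tight junction genes lower and 4 higher, and 1 desmosome gene lower and 0 higher. On that scale Esrp1, Jup, Hes1 and Prc1 changed sign. Esrp1 is itself in the pan-epithelial list that sets the scale. Of the calls on it, 98.8% were higher, against 58.8% in the main scaling and 87% by totals.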

How the data were processed

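The deposited table holds raw read counts per gene, whole numbers with no normalization, and per the submitters' processing notes the authors used bcl2fastq, STAR and the genome build GRCm39. Sources used here name no counting program, strand setting or annotation, and reads of overlapping genes and close copies may be shared. Symbols, gene types and chromosomes came from GENCODE M21 on GRCm38 by identifier, with 147 of 52636 features unmatched.

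Counts were analysed in R 4.3.3 with edgeR 4.0.16: TMM scaling, filterByExpr (minimum count 10, minimum total 15; 15859 features kept), and the quasi-likelihood F test over all 12 libraries with 1 coefficient per group (7 residual and 7.96 prior degrees of freedom, BCV 0.11). The contrast was HOM minus the mean of WT and HET. P-values were two-sided, Benjamini-Hochberg adjusted over all features tested, and called under 0.05. Each SE is the log2 change divided by the root of F. Reads carry no molecular identifiers, so counting intervals and floors cover counting error only.

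The comparison and 39 gene lists were chosen with earlier results of these data known; an imprinted list was added once results were known. Genes are named by a rule: a panel of FGF and epithelial genes, the largest changes and widest gaps at 5 CPM or more without overlap, the highest levels, and up to 4 called genes of each list by p; others are marked in the text, and a gene that the rule names is not reported here. Lists are described by counts and medians, without set tests. Alternatives were other scalings, filters, DESeq2 1.42.0, limma 3.58.1 voom, other control groups, a replicate block, a sex term, a minimum change of 0.5 and each library left out; the block with crossed numbers and the joint omission of HOM 2 and WT 1 were added after seeing the data. The model was tested on simulated data.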

Additional observations from a re-analysis of the deposited data

Results flagged for a closer look

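Gjb2, the connexin among the duct genes, had 1 control library far from the other 3: HET 1 was at 15.1 CPM, while the other controls read 12.2 to 12.4 CPM. The gap to the nearest control was 0.938 of the whole control range, above Dixon's critical value for 4 samples. Chance alone sets apart about 1 in 20 groups by this measure. Both HOM libraries, at 7.12 and 6.21 CPM, lay below all 4.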

How the results depend on the processing

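Numbers below are genes called higher, called lower, and called without overlap, against 512, 359 and 822 in the main analysis; where 1 or 2 are given, the others stayed within 1.5 times. Library totals gave 74 lower and 486 without overlap, and scaling to pan-epithelial genes 6801, 83 and 1845. Without the filter on low counts 855 were higher. WT, HET and HOM modelled alone gave 779 higher, and WT and HET as 1 group 174, 186 and 359. HET as sole control gave 82, 123 and 182, and DMSO glands 1479, 1382 and 1680. The sex term gave 11, 21 and 13, and a minimum change of 0.5 gave 35, 15 and 47. A replicate block gave 690, 427 and 1016. In their deviations from group means, libraries with the same number correlated at -0.0436 to -0.147. With 2 libraries a group, these values cannot show whether the numbers mark a batch. A replicate block with the WT numbers crossed gave 904, 738 and 1422. Leaving out 1 library gave 82 to 364 higher, 40 to 254 lower and 118 to 563 without overlap, lowest without HOM 2, and leaving out HOM 2 and WT 1 together 10, 2 and 11. The cause was not tested for any of these. Signs changed as follows. With pan-epithelial scaling the log2 changes were 0.30 for Fgfr2, 0.36 for Dusp6, 0.058 for Esrp1, 0.052 for Jup, 0.093 for Hes1, 0.011 for Prc1 and 0.023 for Clcn3. Library totals gave 0.072 for Fgfr2 and 0.13 for Dusp6. Against DMSO they were -0.01 for Etv4, -0.50 for Kit, -1.40 for Eno1b and 0.12 for Dusp6, and against HET -0.021 for Spry1 and 0.086 for Dusp6. Without the filter Dusp6 was at 0.01. The sex term gave -0.73 for Foxd3 and -0.56 for Hba-a1. Leaving out libraries gave -0.022 to 0.074 for Spry1, -0.027 to 0.049 for Kit and -0.065 to 0.014 for Dusp6. With 2 HOM libraries of unequal depth, genes near the filter are read least precisely.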

Other observations

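Imprinted genes, a list added after the results were seen, included 8 called higher and 0 lower of 25 tested, with a median log2 change of 0.34 and both HOM libraries above all controls in 16. Without HOM 2 the higher calls were 4. The insulin-like growth factor gene Igf2 was at 746 and 771 CPM in WT, 1110 and 897 CPM in HET and 1349 and 1384 in HOM. Its change was 0.65 ± 0.15 (adjusted p = 0.0168; up to 0.180 without HET 2, HOM 1, HOM 2, WT 1 or WT 2). Cdkn1c, a brake on the cell cycle, was at 291 and 275 CPM in WT, 412 and 349 CPM in HET and 521 and 521 in HOM (0.67 ± 0.10, adjusted p = 0.0016). Peg10, a retrotransposon-derived gene, was at 171 to 304 CPM in the controls and 381 and 346 in HOM (0.73 ± 0.10, adjusted p = 0.000768), and Mest at 142 to 224 CPM and 293 and 285 (0.73 ± 0.10, adjusted p = 0.000896). HET lay between WT and HOM for these genes. Against HET alone edgeR's test called 0 of the 25, at a median of 0.23 and with 12 at an unadjusted p under 0.05, and against WT 10 were higher, at a median of 0.51. The summed level was 5614 and 5758 CPM in WT, 7080 and 6380 CPM in HET, 7757 and 7863 in HOM and 4705 to 5308 in DMSO. The mesenchyme sums given above had the same order of genotypes, and their part in this result was not tested.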
